A study of Rattus norvegicus with 28 samples.

Results

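Integrins, laminins and basement membrane glycoproteins hold vascular cells to the matrix around them, and their genes were examined in rat aortic wall exposed to low and to high wall shear stress (WSS). The genes were taken by a rule on names in the array annotation and not on levels, though earlier results of these data were known when they were chosen. The rule took all numbered integrin α and β chains and Itgav except the leucocyte chain Itgb2, all laminin chains, the nidogens, perlecan (Hspg2), agrin (Agrn), fibronectin (Fn1), vitronectin (Vtn) and dystroglycan (Dag1), each by probe sets that carry exactly 1 gene symbol. This gave 37 probe sets of 35 genes among the 29214 probe sets of the array, namely 12 integrin α chains, 6 integrin β chains, 10 laminin chains and 7 other glycoproteins. Of the 35 genes, 30 had a mean level of at least 4 on the log2 scale and entered the test, and Itga4, Itgb6, Itgb7, Lama1 and Lamb3 stayed under that minimum. Itga9 was represented only by a probe set with several symbols, and Itgb3, Itgae, Tnc and Tnxb by no probe set with a single symbol, so these genes are not described.

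The low WSS pools came from the distal lesser curvature of the aortic arch, where flow was disturbed, and the high WSS pools from the greater curvature just beyond the left subclavian artery, where flow was uniform. Both regions came from untreated male Wistar rats, with no genetic modification named, and pieces of full-thickness wall from 5 animals were combined into 1 pool. There were 14 low WSS pools and 14 high WSS pools from 70 animals, each hybridised to 1 Affymetrix Rat Gene 1.1 ST array. By the methods, each low WSS pool has a high WSS pool from the same animals. Pools that share a replicate number were taken to be such a pair. The 2 regions differ in place in the arch as well as in flow, so place and shear stress cannot be told apart.

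An integrin is a pair of 1 α and 1 β chain that spans the cell membrane, binds matrix outside and anchors the actin cytoskeleton inside. The α chain largely sets the ligand: some bind collagen, some laminin and some the RGD motif of fibronectin and vitronectin. Laminins are cross-shaped trimers of an α, a β and a γ chain that build the basement membrane around each smooth muscle cell and beneath the endothelium, where nidogen, perlecan and agrin tie them to type IV collagen and dystroglycan binds them from the cell side.

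Levels are log2 values after RMA, array medians ran from 4.85 to 4.92 in low WSS and from 4.88 to 5.00 in high WSS pools, and the number of arrays limits the precision. The smooth muscle genes Myh11, at 12.2 ± 0.127 in low WSS and 12.2 ± 0.12 in high WSS (SD, n = 14 each), and Tagln, at 12.5 ± 0.097 in low WSS and 12.4 ± 0.116 in high WSS, fit the labelled tissue, and the endothelial gene Cdh5 was at 6.72 ± 0.366 in low WSS and 6.64 ± 0.346 in high WSS. Myh11 and Tagln do not stand for the whole contractile list, in which 1 of 14 genes was higher and 7 were lower in low WSS (57.1% called, against 41.7% of all genes). Fat cell genes varied widely between pools of 1 region. The mean of 14 adipocyte genes ran from 5.68 to 9.14 in low WSS and from 5.50 to 9.00 in high WSS. Paired pools deviated together from the mean of their region in pairs 4 to 14 (r = 0.23 to 0.48 over probe sets) but not in pairs 1, 2 and 3 (r = -0.01 to 0.04), so values from pairs 4 to 14 alone are given where they changed a call or differed by over 1.5 times. In bulk tissue, fewer cells of a type and less RNA per cell cannot be told apart.

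Of the 30 measured genes, 5 were higher in low WSS (Lamb1, Itga10, Itga3, Itga8 and Itgb8), 7 were lower (Itga11, Itga2, Itga5, Itga1, Nid1, Itga7 and Lamb2) and 18 were not called, at an adjusted p under 0.05 (limma with the pair as a block, Benjamini-Hochberg over all 13383 probe sets tested). The share called, 40.0%, was near the 41.7% of all 11750 genes tested, of which 19.7% were higher and 22.0% lower and does not set the group apart. Its median log2 difference (low minus high WSS) was -0.01, against -0.01 over all genes, and its median size was 0.11, against 0.11. The split between higher and lower moved with the scaling of the arrays, with 8 higher and 6 lower (57.1% of calls higher, against 41.7% otherwise) when each array was centred on its median and 4 and 9 (30.8%) when the arrays were quantile normalized again. Over all probe sets tested the higher share of calls was 48.5% as deposited, 62.4% with centred arrays and 49.2% with renewed quantile normalization. In pairs 4 to 14 alone, 7 genes were higher and 8 lower. Lamb1 and Itga11 passed the Bonferroni threshold, 2 of 30 genes against 6.91% of all genes, and the same 2 genes differed in the same direction in all 14 pairs, against 9.22% of all genes (4.38% higher and 4.83% lower). By probe set, 14 of 32 were called (5 higher, 9 lower), against 42.2% of all probe sets tested. By family, 8 of 11 integrin α chains were called (3 higher, 5 lower), as were 1 of 4 β chains (higher), 2 of 8 laminin chains (1 higher, 1 lower) and 1 of 7 other glycoproteins (lower).

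**Figure D1:**
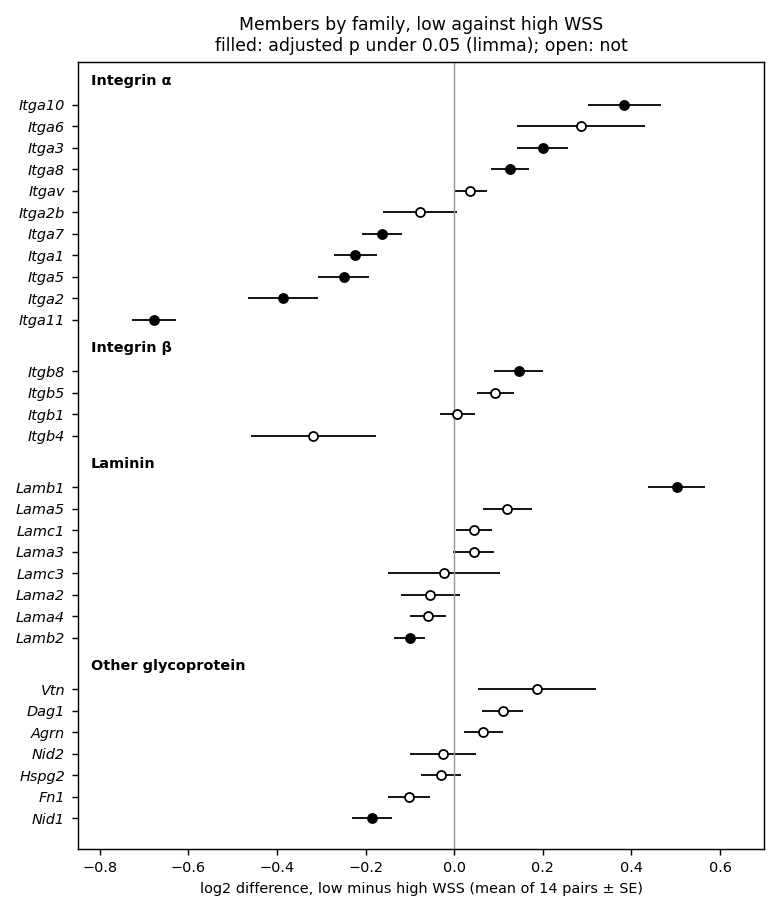
Log2 difference (low minus high WSS, mean of 14 pairs ± SE) of the 30 measured genes by family, with filled points for an adjusted p under 0.05 and open points for the others. The extremes are Lamb1 at 0.50 and Itga11 at -0.68, the integrin α chains spread to both sides, and the shared chains Itgb1, Itgav and Lamc1 lie near 0, where Itgb1 and Itgav change sign when the arrays are quantile normalized again.

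The 4 collagen-binding α chains, which all pair with Itgb1, were all called, against 41.7% of all genes, and did not move one way. Of these, Itga2 and Itga10 lay near the level minimum. Itga11, a receptor for fibrillar collagen known from fibroblasts, had levels of 7.51 to 8.93 in low WSS pools (median 8.15) and 8.23 to 9.44 in high WSS pools (median 8.87). The ranges overlapped, yet the low WSS pool was the lower one in every pair, by 0.42 to 1.02, and the mean log2 difference was -0.68 (SE 0.05, adjusted p = 3.67e-08), 1.60-fold. Itga2, another collagen receptor, ran from 3.50 to 4.25 in low WSS (median 3.85) and from 3.88 to 4.61 in high WSS (median 4.20). It had a log2 difference of -0.39 (SE 0.08, adjusted p = 0.000717), with 2 of 14 pairs higher in low WSS. Its mean was 3.85 in low WSS, under the minimum of 4, and 4.24 in high WSS, so that it entered the test only through the high WSS pools and was bound to be lower in low WSS. Itga1, which binds type IV collagen, ran from 8.35 to 9.30 in low WSS (median 9.01) and from 8.55 to 9.53 in high WSS (median 9.27). It had a log2 difference of -0.22 (SE 0.05, adjusted p = 0.00128), with 1 of 14 pairs higher in low WSS. The regions overlapped for both genes, and the call of Itga1 was lost without the pairing (adjusted p = 0.0954).

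Itga10, a collagen receptor best known from cartilage, went the other way. Its levels, near the minimum of 4, ran from 4.04 to 4.79 in low WSS (median 4.39) and from 3.63 to 4.53 in high WSS (median 4.02). The log2 difference was 0.38 (SE 0.08, adjusted p = 0.00115). In 11 of 14 pairs the low WSS pool was the higher one, with differences of 0.52 to 0.91 in pairs 1 to 3 and of -0.10 to -0.02 in pairs 7, 12 and 13. The log2 difference of Itga10 exceeded that of Itga11 in all 14 pairs, by 1.06 on average (SE 0.11, 0.51 to 1.59). This contrast and the 2 like it below were chosen after the values had been seen and are descriptions with no test. Among 6 measured cartilage genes, 1 was higher and 1 lower (33.3%, against 41.7% of all genes), with a list mean of 4.89 to 5.16 in low WSS and 5.04 to 5.52 in high WSS. The part of other cell types in the Itga10 value was not tested.

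Of the laminin-binding α chains, Itga3 was higher and Itga7 lower in low WSS. Itga3 ran from 5.15 to 6.14 in low WSS (median 5.90) and from 5.10 to 6.05 in high WSS (median 5.78). Its log2 difference was 0.20 (SE 0.06, adjusted p = 0.00937), higher in low WSS in 12 of 14 pairs. Itga7, the laminin receptor of muscle cells, ran from 8.90 to 9.48 in low WSS (median 9.15) and from 8.87 to 9.73 in high WSS (median 9.30). Its log2 difference was -0.16 (SE 0.04, adjusted p = 0.00732), with 2 of 14 pairs higher in low WSS. The regions overlapped for both genes, and without the pairing neither was called (adjusted p = 0.131 for Itga3 and 0.0874 for Itga7).

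Itga6 and Itgb4, the 2 chains of the laminin receptor of hemidesmosomes, varied more between pairs than any of the genes above and were not called. Itgb4 ran from 5.54 to 6.83 in low WSS (median 5.92) and from 5.76 to 7.07 in high WSS (median 6.37), with a log2 difference of -0.32 (SE 0.14, adjusted p = 0.0798). In pairs 1, 2 and 3 Itgb4 was higher in low WSS, by 0.59, 0.39 and 0.99, whereas in pairs 4 to 14 it was lower in every pair, by 0.16 to 1.02. In pairs 4 to 14 alone the log2 difference was -0.58 (adjusted p = 5.15e-05), and leaving out pair 1, 2 or 3 singly gave -0.39, -0.37 and -0.42, each of them called (adjusted p = 0.0301, 0.0465 and 0.00991). Itga6 ran from 6.15 to 7.47 in low WSS (median 6.67) and from 5.59 to 7.31 in high WSS (median 6.40). Its log2 difference was 0.29 (SE 0.14, adjusted p = 0.123), with differences between 0.66 and 1.53 in pairs 1 to 3 and of 1.08 in pair 8. In pairs 4 to 14 alone it was 0.06 (adjusted p = 0.685). The adipocyte list mean in low WSS exceeded that in high WSS by 1.77, 3.23 and 2.50 in pairs 1, 2 and 3, by 2.82 in pair 7 and by 0.38 in pair 8. In pairs 4 and 6 its difference was -1.51 and -1.78. With that mean as a covariate Itgb4 had a log2 difference of -0.48 (adjusted p = 0.00636). In pair 7 Itgb4 was lower in low WSS by 0.41, and the difference of Itga6 was 0.20. In pairs 4 and 6 the differences were -0.74 and -0.40 for Itgb4 and -0.35 and -0.25 for Itga6. The part of fat tissue in these 2 genes was not tested.

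**Figure D2:**
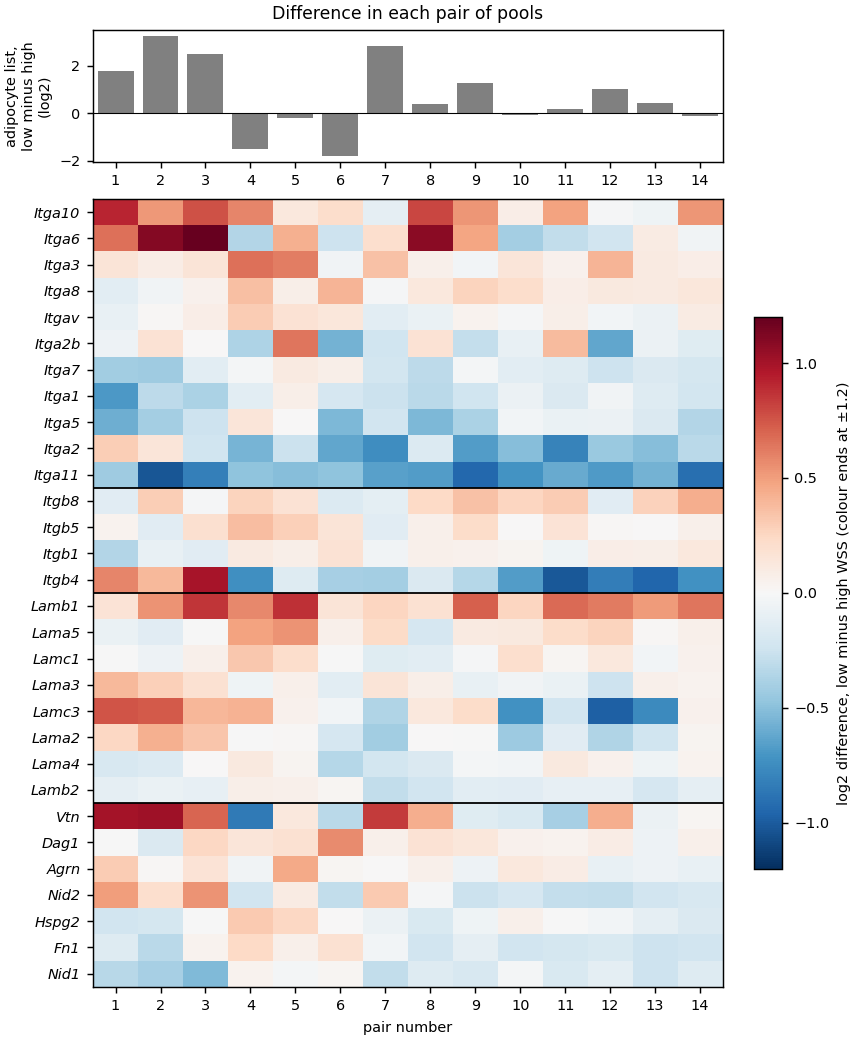
Log2 difference (low minus high WSS) of each measured gene in each of the 14 numbered pairs, from blue (lower in low WSS) to red (higher in low WSS), with colours ending at 1.2 on either side; the bars above give the difference of the adipocyte list mean. Itga11 is blue and Lamb1 red in every pair, and Itgb4 is red in pairs 1 to 3 and blue in the others.

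Of the α chains that bind the RGD motif, Itga5 was lower, Itga8 was higher and Itgav was not called. Itga5, the α chain of the classical fibronectin receptor, ran from 8.64 to 9.38 in low WSS (median 9.14) and from 8.79 to 9.97 in high WSS (median 9.26). The log2 difference was -0.25 (SE 0.06, adjusted p = 0.0022), with 2 of 14 pairs higher in low WSS. Itga8, an α chain of smooth muscle and mesenchymal cells that binds nephronectin and fibronectin, ran from 12.24 to 12.51 in low WSS (median 12.42) and from 11.88 to 12.46 in high WSS (median 12.34). Its log2 difference was small, 0.13 (SE 0.04, adjusted p = 0.0247), higher in low WSS in 11 of 14 pairs. The regions overlapped for both. The call of Itga5 was lost without the pairing (adjusted p = 0.0549), and that of Itga8 without pair 4 or pair 9 (log2 difference 0.11 in each case, adjusted p = 0.0514 and 0.0505), with renewed quantile normalization (adjusted p = 0.0946) and with Tagln and Cnn1 as covariates (adjusted p = 0.235). The log2 difference of Itga8 exceeded that of Itga5 in all 14 pairs, by 0.38 on average (SE 0.06, 0.07 to 0.94). Itgav, the α chain shared by the vitronectin receptors, ran from 10.83 to 11.09 in low WSS (median 10.91) and from 10.68 to 10.99 in high WSS (median 10.89). The log2 difference of 0.04 (SE 0.04, adjusted p = 0.464) changed sign to -0.07 with renewed quantile normalization. Itga2b, the α chain of the platelet fibrinogen receptor, had a log2 difference of -0.08 (adjusted p = 0.482).

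Itgb1, the β chain that most of these α chains share, ran from 11.06 to 11.45 in low WSS (median 11.35) and from 10.89 to 11.58 in high WSS (median 11.32). Its log2 difference was 0.01 (SE 0.04, adjusted p = 0.906), it changed sign with renewed quantile normalization (-0.07), and it was 0.06 (adjusted p = 0.17) in pairs 4 to 14 alone. Of the 11 measured α chains, 8 were called (72.7%, against 41.7% of all genes), all of them partners of Itgb1. Among these, Itga2 was bound to be lower through the level minimum. The difference of the common chain lay within its SE. Itgb8, which pairs with Itgav and activates latent TGF-β, ran from 7.42 to 8.10 in low WSS (median 7.80) and from 7.24 to 7.93 in high WSS (median 7.61), with overlapping regions and a log2 difference of 0.15 (SE 0.05, adjusted p = 0.0413, higher in low WSS in 9 of 14 pairs). This call lay at the threshold: it was lost without any 1 of pairs 2, 4, 5, 8, 9, 10, 11, 13 and 14 (log2 difference 0.12 to 0.14, adjusted p = 0.0627 to 0.0878), without the pairing (0.109), with Tagln and Cnn1 as covariates (log2 difference 0.075, adjusted p = 0.496) and by the paired t-test that the study used (0.0546). That test called 0 of the 4 β chains and 11 of the 30 genes in all, against 40.3% of all genes. At an unadjusted p under 0.05 in limma, 3 of the 4 β chains passed, against 49.7% of all genes.

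Itgb5, which pairs with Itgav to bind vitronectin, was measured by 2 probe sets that disagreed. The brighter one, which represents the gene here, ran from 9.55 to 9.85 in low WSS (median 9.70) and from 9.41 to 9.78 in high WSS (median 9.63). A log2 difference of 0.09 (SE 0.04, adjusted p = 0.085) was not called, but it was without pair 2 or pair 7 (0.11 in each case, adjusted p = 0.0474 and 0.045). The dimmer one ran from 4.11 to 4.84 in low WSS (median 4.50) and from 4.94 to 5.69 in high WSS (median 5.36), a log2 difference of -0.84 (SE 0.08, adjusted p = 3.65e-07). This dimmer probe set passed the Bonferroni threshold, as did 6.91% of all genes by their brightest probe set. It was lower in low WSS in all 14 pairs, and it was the only 1 of the 32 tested probe sets whose levels did not overlap between regions, against 1.70% of all probe sets tested. Over the genes by their brightest probe set, 0 of 30 did not overlap, against 1.13%. Which part of the transcript each probe set covers was not analysed here. Lama2 also had a second, dimmer probe set, at -0.20 (SE 0.05, adjusted p = 0.00357), whose brighter partner was at -0.05 (adjusted p = 0.545).

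The laminin β chains went in opposite directions. Lamb1, the β chain of most vascular laminins, ran from 8.88 to 9.38 in low WSS pools (median 9.10) and from 8.32 to 8.89 in high WSS pools (median 8.56). Only the ends of the ranges met, since the lowest low WSS pool lay just under the highest high WSS pool. The log2 difference was 0.50 (SE 0.06, adjusted p = 9.26e-06), 1.42-fold, and the low WSS pool was the higher one in every pair, by 0.15 to 0.88. Lamb2, the alternative β chain, ran from 10.35 to 10.57 in low WSS (median 10.47) and from 10.34 to 10.72 in high WSS (median 10.58), overlapping throughout. The difference of -0.10 (SE 0.03) on the log2 scale had an adjusted p = 0.0274, with 3 of 14 pairs higher in low WSS. The Lamb2 call was lost without pair 7, 8 or 13 (log2 difference -0.09 in each case, adjusted p = 0.0573, 0.0572 and 0.0558), in pairs 4 to 14 alone (0.0631) and with arrays centred on their medians (0.196). It was also lost with Tagln and Cnn1 (adjusted p = 0.116) or the adipocyte list mean (-0.07, adjusted p = 0.13) as covariates. The log2 difference of Lamb1 exceeded that of Lamb2 in all 14 pairs, by 0.60 on average (SE 0.06, 0.12 to 0.95).

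**Figure D3:**
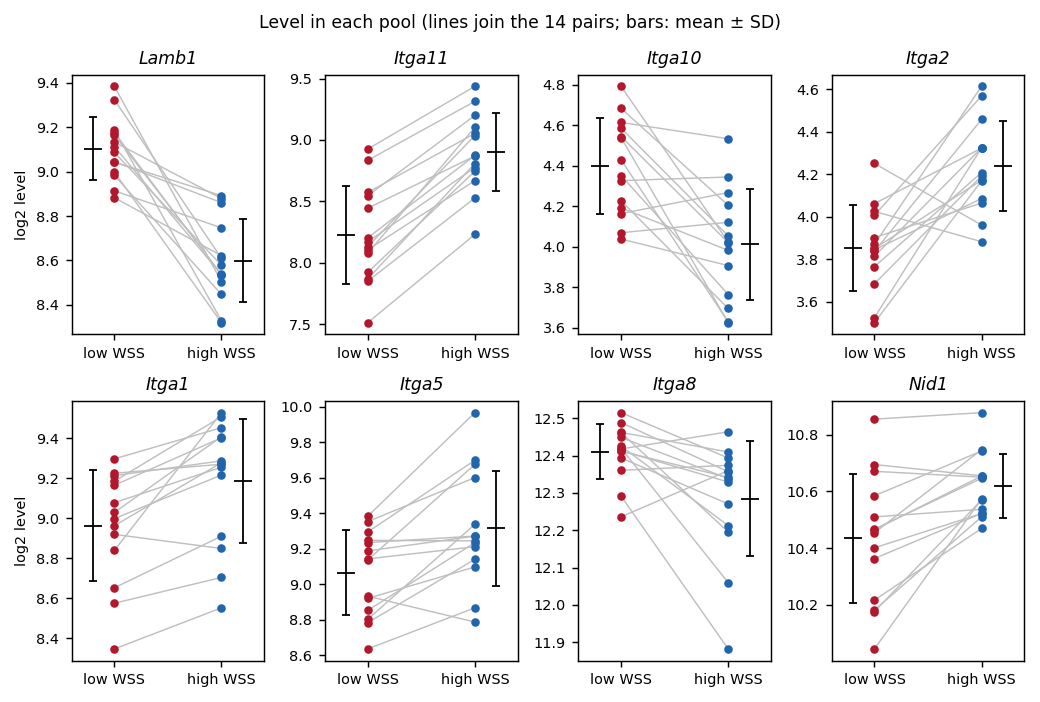
Log2 level of 8 called genes in each low WSS pool (red) and high WSS pool (blue), with lines joining the 14 pairs and bars for mean ± SD. All lines of Lamb1 fall and all lines of Itga11 climb toward the high WSS side, and the other 6 genes have overlapping regions with 1 to 3 pairs running against the rest.

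The other laminin chains were not called. Lamc1, the γ chain of nearly all vascular laminins, ran from 9.98 to 10.49 in low WSS (median 10.11) and from 9.88 to 10.28 in high WSS (median 10.10), a log2 difference of 0.04 (SE 0.04, adjusted p = 0.395). Of the α chains, Lama4, the endothelial and perivascular chain, had a log2 difference of -0.06 (adjusted p = 0.252), Lama3, known from epithelia, one of 0.04 (0.475; -0.02 in pairs 4 to 14 alone), and Lama5, the other main chain of vessels, one of 0.12 (0.0939). Lama5 was called without pair 8 (0.14, adjusted p = 0.0471) and in pairs 4 to 14 alone (0.17, adjusted p = 0.0328), and so was Lama2, the muscle chain, in pairs 4 to 14 alone (-0.16, adjusted p = 0.0286). Lamc3 had a log2 difference of -0.02 (adjusted p = 0.9) that ran from -0.98 to 0.75 over pairs. Pairs 1, 2 and 3 were at 0.75, 0.73 and 0.40, and pairs 4 to 14 alone gave -0.20 (adjusted p = 0.18). Its sign turned when arrays were centred on their medians (0.01) or when pair 7, 10, 12 or 13 was left out (up to 0.05).

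Nid1, the nidogen that links laminin to type IV collagen, was lower in low WSS. It ran from 10.04 to 10.86 in low WSS (median 10.46) and from 10.47 to 10.88 in high WSS (median 10.61), with 2 of 14 pairs higher in low WSS and a log2 difference of -0.19 (SE 0.05, adjusted p = 0.0034). The regions overlapped, but every high WSS pool lay above the low WSS median. Nid2, the second nidogen, had a log2 difference of -0.03 (adjusted p = 0.808), which turned to 0.01 with arrays centred on their medians. Pairs 1 to 3 gave Nid2 differences of 0.50, 0.20 and 0.54, whereas the log2 difference over pairs 4 to 14 alone was -0.145 (adjusted p = 0.0539). For Nid1 the value in pairs 4 to 14 alone was -0.12 (adjusted p = 0.0265). The call of Nid1 was lost with Tagln and Cnn1 as covariates (-0.14, adjusted p = 0.0546).

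The large adhesive and heparan sulphate glycoproteins were not called. Fn1 (fibronectin) ran from 11.10 to 11.53 in low WSS (median 11.33) and from 11.22 to 11.67 in high WSS (median 11.42). The difference of -0.10 (SE 0.05, adjusted p = 0.0956) on the log2 scale was called without pair 4 or pair 6 (-0.13 and -0.12, adjusted p = 0.0295 and 0.0402) and with renewed quantile normalization (-0.16, adjusted p = 0.00777). Hspg2 (perlecan) ran from 10.95 to 11.37 in low WSS (median 11.13) and from 11.00 to 11.41 in high WSS (median 11.16), a log2 difference of -0.03 (SE 0.04, adjusted p = 0.616). Its direction depended on the scaling, at -0.13 (adjusted p = 0.00951) with renewed quantile normalization and 0.01 with arrays centred on their medians, and in pairs 4 to 14 alone it was 0.0017. Dag1 (dystroglycan, the laminin receptor of the dystrophin complex) ran from 9.67 to 9.97 in low WSS (median 9.74) and from 9.14 to 9.89 in high WSS (median 9.70), with a log2 difference of 0.11 (SE 0.05, adjusted p = 0.0691). It was called without pair 2 (0.13, adjusted p = 0.0322), in pairs 4 to 14 alone (0.13, adjusted p = 0.0453) and with arrays centred on their medians (0.15, adjusted p = 0.0288). Agrn (agrin) was at 0.07 (adjusted p = 0.25; 0.04 in pairs 4 to 14 alone) and Vtn (vitronectin) at 0.19 (adjusted p = 0.278), the last with pair differences of -0.85 to 1.02 and, in pairs 4 to 14 alone, a log2 difference of -0.01.

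Among the 5 genes under the level minimum, Itga4, which with Itgb1 or Itgb7 forms the leucocyte receptors for VCAM-1 and MAdCAM-1, ran from 3.61 to 4.40 in low WSS (median 4.03) and from 3.44 to 4.06 in high WSS (median 3.81). In 13 of 14 pairs the low WSS pool was the higher one, with a log2 difference of 0.27 (SE 0.04, adjusted p = 9.43e-05) when all probe sets with a symbol were tested without the minimum. In the same fit Itgb6, the epithelial partner of Itgav, was at -0.20 (adjusted p = 0.0388) and Itgb7 at 0.15 (adjusted p = 0.0742), while Lamb3 (-0.02, adjusted p = 0.773) and Lama1 (-0.01, adjusted p = 0.933) were not called. Of 14 measured myeloid genes, 6 were higher and 1 lower in low WSS (50.0%, against 41.7% of all genes). Their list mean was 6.12 to 6.82 in low WSS and 5.99 to 6.73 in high WSS. The pan-leucocyte gene Ptprc had a log2 difference of 0.31 (adjusted p = 0.00553) and Aif1, the gene called lower, one of -0.13 (0.0281). Cd68 (0.03, 0.845), Fcer1g (0.0008, 0.996) and Itgam (0.10, 0.29) were not called. The paper reports that its own leucocyte markers, CD11b among them, were undetected or did not differ significantly. The part of leucocytes in the Itga4 value was not tested.

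The promoters of the genes furthest past the threshold, Lamb1 and Itga11, and of Itga10 and Itga1, collagen-binding chains that went in opposite directions, are given for context as the 250 bases before the RefSeq gene start (assembly GRCr8, gene strand, 5′ to 3′). They lie at chr6:53562846-53563095 (+) for Lamb1, chr8:72041182-72041431 (+) for Itga11, chr2:186871461-186871710 (+) for Itga10 and chr2:48545284-48545533 (-) for Itga1. Capitals mark matches, on either strand, to the E box (CANNTG, bound by basic helix-loop-helix factors), the GC box (GGGCGG, bound by Sp1 family factors), the AP-1 site (TGANTCA), the TATA box (TATAAA) and the CArG box, the serum response factor motif of smooth muscle genes.
Lamb1: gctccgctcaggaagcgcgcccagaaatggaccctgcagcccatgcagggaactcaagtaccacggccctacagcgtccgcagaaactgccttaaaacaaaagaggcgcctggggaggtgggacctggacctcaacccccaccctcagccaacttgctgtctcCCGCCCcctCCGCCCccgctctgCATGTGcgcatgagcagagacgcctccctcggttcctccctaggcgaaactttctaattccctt
Itga11: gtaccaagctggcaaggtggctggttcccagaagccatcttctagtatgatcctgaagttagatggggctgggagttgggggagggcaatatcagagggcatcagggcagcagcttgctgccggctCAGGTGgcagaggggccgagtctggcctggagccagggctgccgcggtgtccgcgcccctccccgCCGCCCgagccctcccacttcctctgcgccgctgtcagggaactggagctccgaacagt
Itga10: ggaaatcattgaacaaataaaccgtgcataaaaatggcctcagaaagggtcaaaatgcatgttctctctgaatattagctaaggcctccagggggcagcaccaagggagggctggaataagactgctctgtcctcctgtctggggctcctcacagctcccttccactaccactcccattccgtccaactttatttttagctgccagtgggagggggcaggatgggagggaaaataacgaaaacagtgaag
Itga1: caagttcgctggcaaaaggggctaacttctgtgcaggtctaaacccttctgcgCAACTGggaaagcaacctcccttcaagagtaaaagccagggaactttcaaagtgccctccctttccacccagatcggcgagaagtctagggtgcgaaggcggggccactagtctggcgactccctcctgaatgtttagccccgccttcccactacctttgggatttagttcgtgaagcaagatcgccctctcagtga
Lamb1 held 1 E box and 2 GC boxes, Itga11 held 1 of each, Itga1 held 1 E box, and Itga10 held none of the motifs. Over the 33469 promoters of the same length, 65.5% held an E box, 30.5% a GC box, 6.34% an AP-1 site, 12.9% a TATA box and 1.50% a CArG box. Of the 28 of 35 genes with a promoter in the table, 15 held an E box, 15 a GC box, 1 an AP-1 site, 2 a TATA box and 2 a CArG box. A match describes these letters only. Itga1 and Itga2 are neighbours on chromosome 2, with 0 protein-coding genes starting between them. Since Itga2 was bound to be lower in low WSS through the level minimum, nothing is drawn from their shared direction.

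Chains that form 1 molecule were compared over the pairs, by the correlation of their pair differences. Of 10 listed couples, 8 were measured, and for 5 of these Pearson's r had an adjusted p under 0.05 (2-sided permutation tests with 100000 resamples, Benjamini-Hochberg over the 8). The median r was 0.691 over the 8 couples and 0.058 over all couples of the 11750 genes, which were not matched on level, and 2.34% of all couples reached the lowest r among the 5, 0.654. The differences of Itgav and Itgb5 (brighter probe set) had r = 0.823 (p = 0.00042, adjusted 0.00168) and rho = 0.785 (p = 0.00144, adjusted 0.00936), and r = 0.66 without the 2 pairs farthest from the Itgav median. Those of Itga8 and Itgb1 had r = 0.781 (p = 0.00016, adjusted 0.00128), rho = 0.763 (p = 0.00234, adjusted 0.00936) and r = 0.769 without 2 pairs. The couple of Itga1 and Itgb1 had r = 0.783 (p = 0.00596, adjusted 0.0119) and rho = 0.582 (p = 0.033, adjusted 0.0527). Its r was 0.546 without 2 pairs and 0.11 in pairs 4 to 14 alone. The relation between these pair differences thus rests on pairs 1 to 3. This does not extend to levels within a region, where both genes were lowest in the pool of pair 6. Itga1 and Itgb1 were there at 8.35 and 11.06 in low WSS and at 8.55 and 10.89 in high WSS. For Itga5 and Itgb1, r was 0.317 (p = 0.279, adjusted 0.279) and rho 0.257 (p = 0.374, adjusted 0.374), with r = -0.187 without 2 pairs.

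**Figure D4:**
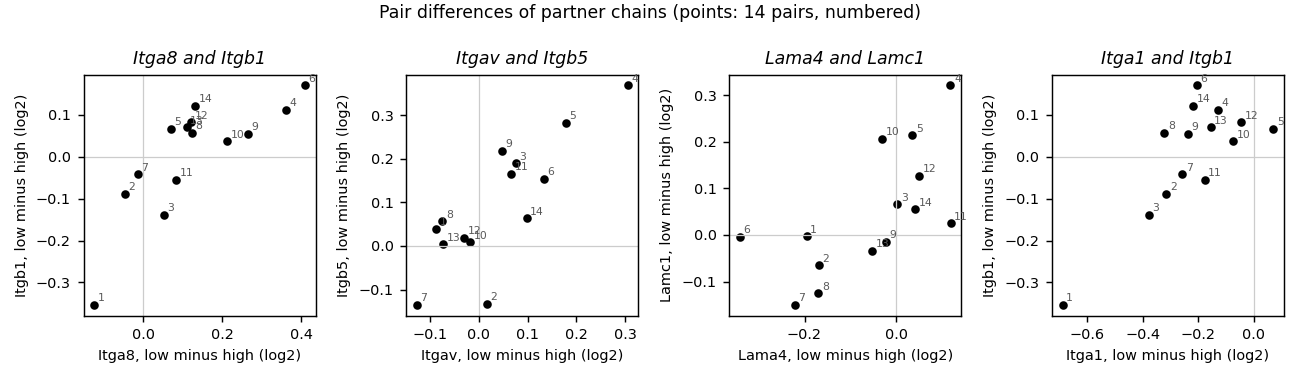
Pair differences (log2, low minus high WSS) of partner chains, with each point 1 of the 14 numbered pairs. Itga8 with Itgb1 and Itgav with Itgb5 rise together over the whole range, Lama4 with Lamc1 with more scatter, and in the panel of Itga1 and Itgb1 pair 1 lies far from the others.

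The laminin couples also shared direction over pairs in part. Lama4 and Lamc1 had r = 0.654 (p = 0.00768, adjusted 0.0123) and rho = 0.692 (p = 0.00784, adjusted 0.0209), with r = 0.671 without the 2 farthest pairs. Lamb2 and Lamc1 had r = 0.728 (p = 0.00344, adjusted 0.00917) and rho = 0.613 (p = 0.0228, adjusted 0.0455), with r = 0.497 without 2 pairs, but over the deviations of all 28 pools from their region means r was -0.01 (adjusted p = 0.949), so the relation held only between pair differences. Nid1 and its laminin partner Lamc1 had r = 0.546 (p = 0.0377, adjusted 0.0503) and rho = 0.534 (p = 0.0525, adjusted 0.0699), with r = 0.722 without 2 pairs. For Lamb1 and Lamc1, the couple with the chain that differed most, r was 0.406 (p = 0.151, adjusted 0.173) and rho 0.477 (p = 0.086, adjusted 0.0983), with r = 0.394 without 2 pairs. Couples with a common chain share its values, so the 8 relations are not independent. Over the same pairs the difference of the adipocyte list mean ran from -1.78 to 3.23, and its part in these correlations was not tested.

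The genes around these receptors and ligands were described by lists, with the share called set beside the 41.7% of all genes and, for named genes, the log2 difference and then the adjusted p of limma. Of 37 measured genes of integrin activation and focal adhesions, 5 were higher and 13 lower in low WSS (48.6%). The lower genes were led by the adaptor tensin Tns3, whose log2 difference was -0.50 (SE 0.06, adjusted p = 7.31e-06). Next came the tyrosine kinase Src at -0.30 (adjusted p = 4.59e-05), Tns2 at -0.23 (0.000122) and the actin regulator Zyx (zyxin) at -0.25 (0.000129). The higher ones were led by Cd151, the tetraspanin that binds laminin-binding integrins, at 0.29 (SE 0.04, adjusted p = 1.47e-05, in 14 of 14 pairs), the actin crosslinker Flna at 0.14 (0.00183), the kinase Fyn at 0.18 (0.00215) and Ilk, the integrin-linked kinase, at 0.12 (0.00907). With Tagln and Cnn1 as covariates 2 were higher and 8 lower, and centring each array on its median gave 9 higher.

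Of 21 measured collagens and associated proteins of the basement membrane, 3 were higher and 2 lower (23.8%). The type IV collagen chains Col4a6 and Col4a5, whose genes are near neighbours on the X chromosome with 1 protein-coding gene starting between them, were higher in low WSS in all 14 pairs, at log2 differences of 0.36 (SE 0.04, adjusted p = 5.33e-06) and 0.35 (SE 0.04, adjusted p = 5.57e-06). The widespread chains Col4a1 (-0.07, adjusted p = 0.246) and Col4a2 (0.12, adjusted p = 0.219) were not called. Col15a1, a basement membrane collagen of muscle and vessels, was higher at 0.25 (adjusted p = 0.000881), and the laminin-binding netrin Ntn4 (-0.35, adjusted p = 0.00419) and Frem2 (-0.22, adjusted p = 0.0106) were lower.

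Of 16 other integrin ligands, 5 were higher and 3 lower (50.0%). Postn (periostin), a ligand of Itgav integrins made by fibroblasts, ran from 7.52 to 8.97 in low WSS (median 8.29) and from 8.79 to 9.77 in high WSS (median 9.45). The difference was -1.14 (SE 0.08, adjusted p = 3.98e-08) on the log2 scale, lower in low WSS in all 14 pairs. The matricellular proteins Ccn2 (-0.21, adjusted p = 0.00454) and Ccn1 (-0.14, adjusted p = 0.00582) were lower too. Higher in low WSS were thrombospondin 2, Thbs2 (0.23, adjusted p = 0.000499), the elastic fibre proteins Fbln5 (0.11, 0.0111) and Fbn1 (0.09, 0.0459), Vcam1, the leucocyte adhesion molecule bound by Itga4 integrins (0.39, 0.0133), and Emilin1 (0.16, 0.0488). The higher calls of this list varied with single pairs, between 3 and 6 genes when 1 pair was left out, with 3 left without pair 3, 4, 5, 6, 8, 10, 12 or 14, and the lower calls numbered 5 without pair 3.

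Around dystroglycan, 4 of 15 measured genes of the dystrophin complex were higher and 4 lower (53.3%). The glycosyltransferases Pomgnt1 (0.18, adjusted p = 0.000488) and B4gat1 (0.22, adjusted p = 0.00256), which build the laminin-binding sugar of dystroglycan, and the sarcoglycans Sgcd (0.30, adjusted p = 0.000563) and Sgcb (0.12, adjusted p = 0.0334) were higher in low WSS. Sarcospan, Sspn (-0.28, adjusted p = 6.88e-05), the dystrobrevins Dtna (-0.25, 0.000152) and Dtnb (-0.25, 0.000416) and the syntrophin Sntb2 (-0.15, 0.00115) were lower. Of 10 other matrix receptors, 5 were higher and 3 lower (80.0%). Higher were the syndecans Sdc4 (0.30, adjusted p = 7.77e-06) and Sdc2 (0.10, 0.0398), the collagen receptor kinase Ddr2 (0.20, 0.000101), the thrombospondin receptor Cd47 (0.28, 0.000166) and the hyaluronan receptor Cd44 (0.13, 0.0404), and lower were Sdc1 (-0.21, 0.00224), the laminin receptor Bcam (-0.15, 0.0118) and Mcam (-0.14, 0.0184). The higher calls of these receptors numbered 3 without pair 3, 4, 5, 6 or 14.

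Cell type markers were counted in the same way, with the share called set beside the 41.7% of all genes. Their part in the values above was not tested beyond the covariates named. Of 14 contractile smooth muscle genes, 1 was higher and 7 lower (57.1%), with a list mean of 10.72 to 11.19 in low WSS and 10.76 to 11.38 in high WSS. The lower ones were led by Ppp1r14a (log2 difference -0.40, adjusted p in limma 1.58e-06) and Myocd (-0.37, 2.09e-05), and the higher one was Actg2 (0.13, 0.01). Myh11 (0.04, 0.429) and the covariate genes Tagln (0.06, 0.252) and Cnn1 (-0.004, 0.943) were not called. Of 10 fibroblast genes, 4 were higher and 4 lower (80.0%, list mean 9.74 to 10.28 in low WSS, 9.94 to 10.40 in high WSS), among them Dpt at -0.65 (adjusted p = 1.99e-06) and Col3a1 at 0.23 (adjusted p = 0.000157). Of 13 endothelial genes, 0 were called in limma, with 0 at an unadjusted p under 0.05 and 0 in the paired t-test, and the list mean ran from 6.24 to 7.07 in low WSS and from 6.14 to 7.19 in high WSS. Of 14 adipocyte genes, 3 were higher and 1 lower (28.6%), and of 10 Schwann cell genes, 1 was higher and 2 lower (30.0%). With Tagln and Cnn1 as covariates 3 of the 30 measured genes of the group were higher and 5 lower, and with the adipocyte list mean 8 were higher and 7 lower. Lamb1 and Itga11 were called in the same direction in all 28 alternative settings that were run.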

How the data were processed

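The deposited table holds log2 levels of all probe sets of the Rat Gene 1.1 ST array for 28 pools, which the authors made from the scanner files with RMA (array background removed, arrays quantile normalized, probes summarised by probe set; rn4 annotation). Because arrays were brought to a common distribution, a change in total mRNA per cell cannot be seen. Gene symbols came from the platform annotation: 18644 probe sets carried 1, 962 several and 9608 none. Probe sets with a symbol and a mean level of at least 4 were tested (13383, of which 12765 with 1 symbol for 11750 genes), as in the methods. The 2 regions were compared in limma 3.58.1 in R 4.3.3 (pair as a block, empirical Bayes, Benjamini-Hochberg), after a test on simulated data. A gene with several probe sets was represented by its brightest one. The methods state paired pools, and the replicate number in the labels was taken as the pair. Correlations of deviations were over 0.1 in 11 of 14 pairs and -0.02 on average between other numbers. No 2 arrays were copies (r 0.979 to 0.996). Replicate pools hold different animals as far as the animal count shows.

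Values per pool were given for the called genes and for the common chains and principal proteins (Itgb1, Itgav, Itga5, Fn1, Lamc1, Lamb1, Hspg2, Nid1 and Dag1), and in each list for up to 4 called genes in each direction with the smallest adjusted p. Emilin1 and Cd44, each the 5th higher gene of its list, were named after their values had been seen. So were Col4a1, Col4a2, Itga2b, Dpt, Col3a1, Ptprc, Aif1, Cd68, Fcer1g, Itgam, Ppp1r14a, Myocd, Actg2 and the genes near the call threshold. The genes and lists were chosen with earlier results of these data known. Mesothelial (3 genes, 0 called, 0 at an unadjusted p under 0.05, 0 in the paired t-test), neuronal (4 genes, 1 higher and 1 lower, 50.0%) and cardiac and skeletal muscle lists (7 genes, 1 higher and 2 lower, 42.9%) were counted too, against 41.7% of all genes called. Alternatives were no pair block, the paired t-test of the methods (with Benjamini-Hochberg adjustment), trend and robust estimation, array weights, other filters and probe set choices, 2 scalings, covariates, pairs 4 to 14 alone, the Bonferroni threshold and each pair left out in turn. The 3 contrasts between genes and their alternatives were added after the values had been seen and are given without a test. Correlations and their permutation tests used scipy 1.17.1. Promoters were taken from RefSeq (GRCr8).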

Additional observations from a re-analysis of the deposited data

How the results depend on the processing

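Array number and signal over background limit the dim probe sets. Of the 12 calls, Lamb1 and Itga11 kept theirs in every alternative, and Itga2 and Itga10 lost theirs only at the Bonferroni threshold (neither was tested at a mean level of at least 6). Without the pair as a block, 3 member genes were higher and 4 lower, and Itga1, Itga3, Itga5, Itga7 and Itgb8 lost their calls; in the lists, 1 basement membrane gene and 1 other matrix receptor were lower and 3 other receptors higher. The cause of the changes below was not tested, apart from fewer samples, fewer genes or a stricter threshold where the setting itself brings them. At the Bonferroni threshold, 1 member was higher and 1 lower (limma), as were 1 and 2 focal adhesion genes, 0 lower basement membrane genes, 0 and 1 other ligands, 0 and 0 dystrophin complex genes and 1 and 0 other receptors; at an unadjusted p under 0.05 these 5 lists had 24, 7, 10, 11 and 8 genes and by the paired t-test 19, 6, 7, 8 and 8.

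Member genes higher in low WSS numbered 3 with Tagln and Cnn1 as covariates or a mean level of at least 6, 8 with the adipocyte covariate or centred arrays, and 3 to 6 with 1 pair left out (3 without pair 4 or 9), while lower genes then numbered 6 to 8. With Tagln and Cnn1 as covariates, 2 focal adhesion genes were higher and 8 lower, 1 other ligand was higher and 3 other receptors were higher. With centred arrays 9 focal adhesion and 6 basement membrane genes were higher. With the adipocyte covariate or array weights 5 basement membrane genes were higher and 5 other ligands lower. With renewed quantile normalization 3 other ligands rose and 5 fell, against 2 and 6 in pairs 4 to 14 alone. Without a filter, 3 other ligands and 3 other receptors were higher, and with a mean of at least 6 0 basement membrane genes were lower. With 1 pair left out, 4 to 8 focal adhesion genes (8 without pair 6), 3 to 6 other ligands and 3 to 5 other receptors were higher and 3 to 5 other ligands lower.

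Log2 differences that changed sign were those of Hspg2 (not called where positive, at 0.0112 with the adipocyte covariate, 0.0075 with centred arrays, 0.0017 in pairs 4 to 14), Itgav (-0.0706 with renewed quantile normalization), Itgb1 (-0.0127 with Tagln and Cnn1, -0.066 with renewed quantile normalization, -0.0056 to 0.0347 with 1 pair left out), Lama3 (-0.0047 with the adipocyte covariate, -0.0218 in pairs 4 to 14), Lamc3 (0.0143 with centred arrays, -0.0834 to 0.0497 with 1 pair left out), Nid2 (0.0061 with Tagln and Cnn1, 0.0124 with centred arrays) and Vtn (-0.0435 with the adipocyte covariate, -0.0104 in pairs 4 to 14). Itgb5 was -0.3737 (limma, adjusted p = 1.69e-05) when its probe sets were averaged. In pairs 4 to 14, r was 0.1107 for Itga1 and Itgb1, -0.2436 for Itga5 and Itgb1 and 0.7665 for Nid1 and Lamc1. Over the deviations of all 28 pools r was 0.4753 for Itga5 and Itgb1, 0.4197 for Lamb1 and Lamc1, -0.0079 for Lamb2 and Lamc1 and 0.6702 for Nid1 and Lamc1. The 3 contrasts between genes kept their direction in every alternative run.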
